A study of Homo sapiens with 32 samples.

Results

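Genes of glycolysis and glucose uptake were followed in HEK293 cells, a line derived from human embryonic kidney, that had been transiently transfected with the human angiotensin II receptor AT1R. The 30 genes were chosen by name, with earlier results of these data known. They are 30 of the 57773 genes in the count tables, and each was matched in both tables. They comprise 2 glucose transporters, 10 genes grouped as upper glycolysis, 6 of lower glycolysis down to pyruvate kinase, 3 bifunctional enzymes that set the level of fructose 2,6-bisphosphate, 4 genes of lactate formation and export, and 5 genes of the pyruvate dehydrogenase step. The 10 cover hexokinase to triosephosphate isomerase and also include phosphoglucomutase (PGM1), which links glycogen to glycolysis. Cells of every group carried the AT1R plasmid and had been moved from medium with foetal calf serum to serum-free medium before stimulation. Control cells received no stimulus, and the other cells were incubated with angiotensin II (AII, 1 nmol/l), with epidermal growth factor (EGF, 10 µg/l), or with both (AII+EGF), for 6 h or for 24 h. The cells were a transfected population and not a clone, and all counts are averages over cells that took up the plasmid and cells that did not. There were 4 libraries in each of the 4 groups after 6 h, and 4 in each after 24 h except for AII+EGF with 3, since 1 further library of that group is not analysed here. The labels do not say whether libraries of a group came from separate cultures, so that p-values measure only the spread between these libraries.

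Glucose enters cells through facilitative transporters of the SLC2A (GLUT) family and is trapped by hexokinase as glucose 6-phosphate. Phosphofructokinase then commits the sugar to glycolysis, and its strongest activator, fructose 2,6-bisphosphate, is made and broken down by the PFKFB enzymes. The lower enzymes convert triose phosphates to pyruvate, which lactate dehydrogenase reduces to lactate for export by the SLC16A (MCT) transporters. Otherwise pyruvate is oxidized inside mitochondria by pyruvate dehydrogenase, unless pyruvate dehydrogenase kinases (PDK) block that enzyme. Many of these genes are textbook targets of the hypoxia-inducible factors (HIF) and of MYC, and glucose uptake is a classical response of cultured cells to growth factors. HK2 stands for the hexokinase 2 gene throughout, not for the kidney cell line of the same name.

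The libraries of the 2 time points differed in make-up. After 6 h, a library held 3881841 to 8540815 counts, of which 81.4 to 84.7% fell on protein-coding genes. After 24 h, a library held 6646227 to 33070903 counts, but only 20.8 to 63.4% were protein-coding and 8.90 to 57.2% fell on U1 small nuclear RNA genes, so that the protein-coding counts, 3216794 to 8028878, were of a similar size to those after 6 h (3176067 to 7033501). The biological coefficient of variation fitted by edgeR was 10.6% after 6 h and 29.1% after 24 h. Values are given as FPM, the count scaled to 1000000 counts per library after normalization by trimmed mean of M values (TMM), and are not compared between the time points. Of the genes that mark HEK293 cells, VIM, NEFL and NEFM were present in every library after 6 h, at 299 to 322, 397 to 602 and 358 to 525 FPM in control libraries, KRT8 and KRT18 were low, and PAX2 was at most 1.16 FPM. Of 10 markers of blood, endothelial, liver, islet, glial and muscle cells, 9 were matched and none passed the filter on low counts, the highest being 1.27 FPM.

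The 30 genes took 0.856% ± 0.033 (SD, n = 4) of the protein-coding counts in control libraries after 6 h, 0.834% ± 0.029 after AII, 1.01% ± 0.029 after EGF and 1.08% ± 0.042 after AII+EGF. After 24 h the shares were 0.738% ± 0.035 in control, 0.727% ± 0.031 for AII, 0.868% ± 0.041 for EGF and 0.833% ± 0.034 (SD, n = 3) for AII+EGF. At both times every library with EGF or AII+EGF lay above every library without EGF. These are bulk samples, in which more expressing cells and more RNA per cell cannot be told apart.

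Per kilobase of transcript (FPKM, levels), ENO1, the main enolase, stood highest in control cells after 6 h with 818 ± 56.2 FPKM (SD, n = 4), followed by GAPDH with 724 ± 40.8, ALDOA, the main aldolase, with 463 ± 42.7, LDHB with 429.8 ± 31.3, PKM, pyruvate kinase, with 293 ± 23.8 and LDHA with 194 ± 18.4. ENO1 and GAPDH overlapped between libraries, as did ALDOA and LDHB, while the other neighbours among these 6 did not. The transporter SLC2A1 and hexokinase 2 lay near the middle of the order with 16 ± 3.34 and 14.4 ± 0.457 FPKM and overlapped. SLC2A3 and PDK4 were lowest with 0.635 ± 0.231 and 0.363 ± 0.243 FPKM. PDK4 had only 1 to 16 counts in a library after 6 h, so that its values rest on few reads.

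The promoters of the genes were read because many of them are textbook HIF targets. The letters ACGTG or GCGTG, the core of the HIF binding motif, were searched on both strands in the 250 bases before each start site given by RefSeq on GRCh38.p14. The 27 genes with an entry had 57 windows, of which 30 (52.6%) held the core. It was in 54.6% of the 14684 windows of coding genes that were tested after 6 h and in 43.2% of all 35116 windows. Some genes have several windows, and 22 of the 27 held the core in at least 1. The share by gene over all genes is not given here. Windows are shown 5′ to 3′ on the gene's strand. LDHA is shown at the first of 2 listed starts (chr11:18394313-18394562, plus strand), with 5 overlapping or separate matches, and the other start had 1. HK2 is shown at the first of 2 (chr2:74833877-74834126, plus strand) with 3, and the other had 6. PGK1 (chrX:78103998-78104247, plus strand) had 3, ENO1 (chr1:8878687-8878936, minus strand) 2, and SLC2A1 (chr1:42958869-42959118, minus strand) none. Capitals mark the core on either strand, so that CACGT and CACGC are the core read on the other strand.
LDHA: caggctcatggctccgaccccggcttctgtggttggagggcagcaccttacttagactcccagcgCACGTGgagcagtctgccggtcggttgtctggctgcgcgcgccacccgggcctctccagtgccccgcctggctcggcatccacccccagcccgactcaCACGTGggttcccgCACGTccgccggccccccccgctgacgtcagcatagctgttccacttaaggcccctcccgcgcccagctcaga
HK2: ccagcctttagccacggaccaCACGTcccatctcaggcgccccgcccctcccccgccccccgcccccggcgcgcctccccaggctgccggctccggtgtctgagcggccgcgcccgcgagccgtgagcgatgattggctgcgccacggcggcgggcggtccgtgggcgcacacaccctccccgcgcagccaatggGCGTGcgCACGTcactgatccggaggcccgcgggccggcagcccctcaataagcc
PGK1: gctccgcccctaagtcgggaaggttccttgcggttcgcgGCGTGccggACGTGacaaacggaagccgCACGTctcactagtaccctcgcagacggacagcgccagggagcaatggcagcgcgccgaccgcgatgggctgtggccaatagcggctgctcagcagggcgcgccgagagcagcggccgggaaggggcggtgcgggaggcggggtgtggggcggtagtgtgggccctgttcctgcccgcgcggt
ENO1: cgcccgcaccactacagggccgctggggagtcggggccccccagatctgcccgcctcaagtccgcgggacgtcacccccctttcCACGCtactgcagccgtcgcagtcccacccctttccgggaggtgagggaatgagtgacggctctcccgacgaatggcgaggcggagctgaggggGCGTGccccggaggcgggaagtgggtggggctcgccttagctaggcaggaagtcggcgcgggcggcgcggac
SLC2A1: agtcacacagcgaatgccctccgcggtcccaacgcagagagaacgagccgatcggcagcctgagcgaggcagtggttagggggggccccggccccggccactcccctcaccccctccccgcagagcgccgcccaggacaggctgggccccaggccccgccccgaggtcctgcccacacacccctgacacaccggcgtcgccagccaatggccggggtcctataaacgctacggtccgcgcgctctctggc
The palindrome CACGTG, the E-box bound by MYC, contains the core on each strand and is therefore counted as a pair of matches. It stood in 7 of the 57 windows (12.3%) and in 8.2% of the tested coding windows, and both 6-letter runs of capitals in the LDHA window are E-boxes. The GC box GGGCGG was in 63.2% of the members' windows and in 62.4% of the tested coding windows, and the EGR motif (GCGGGGGCG or GCGTGGGCG) in 3.5% and 8.5%. The AP-1 motif (TGAGTCA or TGACTCA) was in 5.3% and 2.8%, the cAMP response element TGACGTCA in 1.8% and 2.4%, the TATA box TATAAA in 7.0% and 6.1%, and the CArG box (CC, then 6 bases that are A or T, then GG) in 0 windows and 1.0%. The absence of the HIF core from the SLC2A1 window says only that these letters are not in these 250 bases.

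With EGF for 6 h, both glucose transporters, SLC2A1 and SLC2A3, rose with HK2, PFKP, PGK1, PGAM1, ENO1, ENO2, PKM, LDHA, SLC16A1 and PDK1, and PDK2 fell. Their relatives HK1, PFKL, PFKM, LDHB, SLC16A3, PDK3 and PDK4 did not pass the test, nor did GAPDH. A gene was called where edgeR's quasi-likelihood F test gave a Benjamini-Hochberg adjusted p under 0.05 over all 18618 genes tested. By this rule 13 of the 30 genes were called, 12 higher and 1 lower, while 5.97% of all genes tested were called, 3.60% higher and 2.37% lower. Among genes with a mean above 5 FPM, 13 of 28 members and 7.92% of all were called. With the study's further demands of a fold change above 1.5 and more than 5 FPM, 7 members and 1.73% of all genes remained. The log2 fold change was above 0 in 24 of the 30 genes and in 48.0% of all, its median was 0.21 in the members and -0.01 over all genes, and in 12 members every EGF library lay above every control library, as in 6.61% of all genes.

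With AII+EGF for 6 h, 15 of the 30 genes were called against control, 14 higher and 1 lower, beside 6.10% of all genes, 4.0% higher and 2.11% lower. Above 5 FPM the counts were 15 of 28 members and 7.98% of all genes, and the study's stricter rule left 7 members and 1.95% of all. The log2 fold change was above 0 in 25 members and 47.4% of all genes with medians of 0.32 and -0.01, and 15 members did not overlap with control and were higher, as were 6.77% of all genes. Within each run of libraries taken alone, 20 members were higher and 6 lower with EGF in both runs, and 22 higher and 3 lower with AII+EGF. Of all genes tested, 30.5% were higher and 32.4% lower in both runs with EGF, and 28.4% and 30.8% with AII+EGF. Against AII alone, AII+EGF was called in 17 members, 16 higher and 1 lower, where 5.93% of all genes were called, 3.92% higher and 2.01% lower. Here the counts were 17 of 28 members and 7.78% of genes above 5 FPM, 7 members and 1.87% by the stricter rule, 28 members and 47.3% above 0 with medians of 0.41 and -0.02, and 17 members and 7.12% without overlap and higher.

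**Figure D1:**
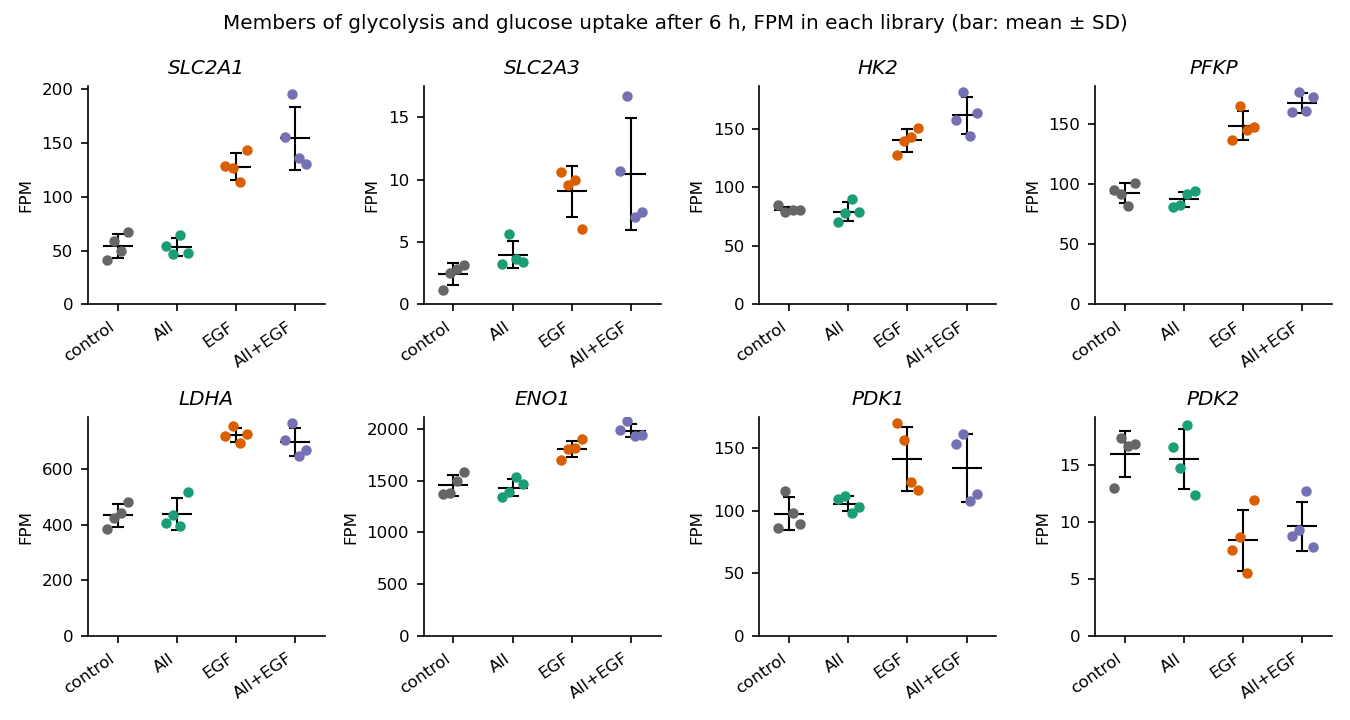
FPM of members after 6 h, on the axis given in each panel, with 1 point per library and the group mean. In SLC2A1, HK2, PFKP and LDHA all EGF and AII+EGF libraries lie above all control and AII libraries.

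The steepest rises were in glucose uptake, where both members were called in each of these 3 comparisons. SLC2A1 (chr1:43391024-43424564 on GRCh37, minus strand) encodes GLUT1, the basal glucose transporter of most cells. It was at 41.2, 58.5, 49.4 and 67.3 FPM in control libraries, 54.2, 46.9, 64.4 and 48.3 after AII, 128, 127, 114 and 144 after EGF and 155, 195, 136 and 131 after AII+EGF. The libraries with EGF, alone or with AII, did not overlap with those without. Against control the log2 fold change was 1.23 (SE 0.13, adjusted p = 3.0e-06) with EGF, a fold change of 2.35, and 1.5 (SE 0.14, adjusted p = 9.5e-08) with AII+EGF, a fold change of 2.83.

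SLC2A3 (chr12:8071826-8171603, minus strand) encodes GLUT3, a transporter of high affinity. It was at 1.16, 2.55, 2.87 and 3.14 FPM in control libraries, 3.23, 5.6, 3.67 and 3.41 after AII, 10.6, 9.56, 9.94 and 6.06 after EGF and 10.7, 16.7, 7.03 and 7.37 after AII+EGF. All stimulated libraries were above all control libraries, and those with EGF were also above those with AII alone. In log2, it rose by 1.83 (SE 0.31, adjusted p = 0.000698) with EGF, and by 2.04 (SE 0.31, adjusted p = 0.000165) with AII+EGF, and gave 0.69 (SE 0.36, adjusted p = 0.987) with AII. Within the first and second run of library numbers, each of which holds 2 libraries of every condition after 6 h, the differences with EGF were 2.44 and 1.41 and with AII+EGF 2.89 and 1.26. SLC2A14, a near-identical copy next to SLC2A3 whose reads the counting could have split, had 0 to 1.63 FPM.

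In upper glycolysis, 2 of 10 genes rose with EGF, 4 with AII+EGF against control and 6 with AII+EGF against AII, and none fell. HK2 (chr2:75061254-75120486, plus strand) encodes the inducible hexokinase of muscle and growing cells. It was at 84.7, 78.6, 80.5 and 80.2 FPM in control libraries, 70.2, 78.1, 90.1 and 79 after AII, 127, 139.6, 143 and 151 after EGF and 157, 181, 144 and 163 after AII+EGF. The EGF and AII+EGF libraries were higher without overlap, with log2 fold changes of 0.79 (SE 0.084, adjusted p = 1.7e-06) and 0.99 (SE 0.084, adjusted p = 3.4e-08), and within the runs of libraries they were 0.71 and 0.87 for EGF. HK1, the hexokinase of most resting tissues, was at 113 to 121 FPM in control and 113 to 134 with EGF, with 0.079 (SE 0.067, adjusted p = 0.56).

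PFKP (chr10:3108525-3179910, plus strand), the platelet isozyme of phosphofructokinase, was at 95.8, 92.4, 82.2 and 102 FPM in control libraries, 81.2, 83.1, 91.7 and 94.5 after AII, 137, 166, 145 and 148 after EGF and 160.3, 177, 161 and 173 after AII+EGF. It rose without overlap by 0.68 (SE 0.08, adjusted p = 8.4e-06) with EGF and 0.85 (SE 0.08, adjusted p = 2.1e-07) with AII+EGF. The muscle isozyme PFKM pointed the other way with EGF, from 98.1, 73.8, 77.8 and 73.8 to 62.3, 71, 67.5 and 62.7 FPM, with -0.29 (SE 0.096, adjusted p = 0.076), which missed the threshold. Its libraries did not overlap, and it was 1 of 2 members lower without overlap with EGF, beside 5.43% of all genes. The liver isozyme PFKL differed by -0.16 (SE 0.11, adjusted p = 0.451) with EGF.

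ALDOA (aldolase A) and GPI (glucose 6-phosphate isomerase) passed the test with AII+EGF and missed it with EGF alone. ALDOA was at 852, 689, 726 and 770.2 FPM in control libraries, 684, 701, 797 and 684 after AII, 766, 859, 860.1 and 889 after EGF and 968, 1036, 956 and 1004 after AII+EGF, and the AII+EGF libraries stood above all others. In log2 it gave 0.15 (SE 0.073, adjusted p = 0.24) with EGF and 0.38 (SE 0.073, adjusted p = 0.00155) with AII+EGF. GPI gave 0.20 (SE 0.073, adjusted p = 0.115) and 0.33 (SE 0.073, adjusted p = 0.00657). Against AII alone, AII+EGF also raised TPI1 (triosephosphate isomerase) by 0.32 (SE 0.078, adjusted p = 0.0125) and PGM1 (phosphoglucomutase, which links glycogen to glycolysis) by 0.44 (SE 0.11, adjusted p = 0.0189). PGM1 was at 27, 27.2, 29 and 28.3 FPM with AII and 31.6, 41, 39.4 and 39.6 with AII+EGF. Its call was lost, with adjusted p of 0.0649, 0.0649, 0.0604, 0.0559 and 0.0532, without AII replicate 1 or 2 or AII+EGF replicate 2, 3 or 4. The rarely expressed ALDOC, aldolase C, was at 6.13 to 9.71 FPM in control and 4.85 to 6.63 with EGF and was not called.

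In lower glycolysis, 5 of 6 genes rose with EGF and with AII+EGF, and all 6 rose with AII+EGF against AII. PGAM1, phosphoglycerate mutase, was at 112, 126, 148 and 158 FPM in control libraries, 189, 195, 175 and 209 after EGF and 207, 193, 209 and 204 after AII+EGF, and rose without overlap by 0.50 (SE 0.091, adjusted p = 0.0015) and 0.58 (SE 0.091, adjusted p = 0.000243). ENO1 (chr1:8921059-8939249, minus strand) was at 1374, 1377, 1494 and 1581 FPM in control libraries, 1702, 1807, 1814 and 1899.6 after EGF and 1989, 2073, 1935 and 1937 after AII+EGF. This most abundant member rose by 0.31 (SE 0.064, adjusted p = 0.00368) and 0.45 (SE 0.064, adjusted p = 7.8e-05), again without overlap. ENO2, the neuronal enolase, was much lower, at 9.48, 8.13, 11.5 and 9.76 FPM in control and 15.1, 17.8, 14.5 and 13 with EGF, and rose by 0.63 (SE 0.16, adjusted p = 0.0201) and with AII+EGF by 0.68 (SE 0.16, adjusted p = 0.0134). The ENO2 call with EGF was lost without control replicate 2 (adjusted p = 0.0665) or EGF replicate 2 (0.0755), and that with AII+EGF without control replicate 2 (0.0575) or AII+EGF replicate 4 (0.0584).

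PGK1, phosphoglycerate kinase, was at 304, 309.9, 369 and 386 FPM in control libraries and 435, 406, 425 and 421 with EGF, a rise of 0.30 (SE 0.081, adjusted p = 0.027). PKM was at 748, 615, 662 and 676 FPM in control libraries and 748, 831, 772 and 840.2 with EGF, a rise of 0.24 (SE 0.07, adjusted p = 0.0389), in which the lowest EGF library and the highest control library were close. With AII+EGF the rises were 0.41 (SE 0.081, adjusted p = 0.00243) for PGK1 and 0.39 (SE 0.07, adjusted p = 0.000951) for PKM. With EGF alone, the PGK1 call was lost without control replicate 1 or 2 or EGF replicate 1, 3 or 4 (adjusted p = 0.0509 to 0.0795), and the PKM call without control replicate 2, 3 or 4 or EGF replicate 2, 3 or 4 (0.0593 to 0.104). GAPDH, often used as a reference transcript, was at 874, 903, 992 and 951 FPM in control libraries, 852, 865, 891 and 849 after AII, 866, 890.3, 967 and 999 after EGF and 1069.6, 1106, 1062 and 997 after AII+EGF. It rose with AII+EGF against AII by 0.29 (SE 0.063, adjusted p = 0.00539), and gave 0.19 (SE 0.063, adjusted p = 0.0859) against control, where DESeq2 called it (adjusted p = 0.0264), and 0.0013 (SE 0.063, adjusted p = 0.997) with EGF. GAPDH, PGK1, PKM, ENO1 and LDHA have processed pseudogenes whose reads the counting could have split from the parent gene.

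**Figure D2:**
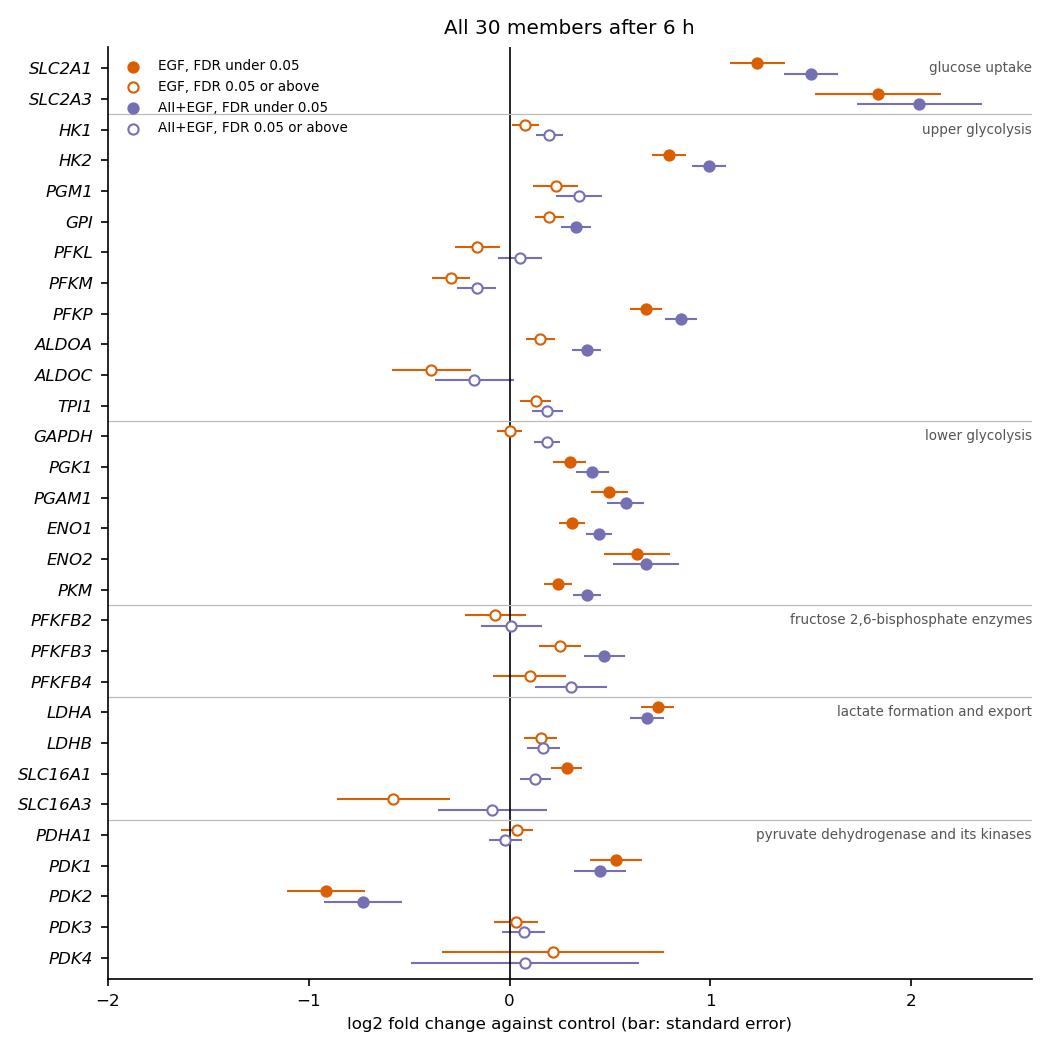
Log2 fold change of the 30 members after 6 h with EGF against control and AII+EGF against control, ordered by role. Bars show the standard error of the edgeR fit. Values lie mostly above 0 with SLC2A3 and SLC2A1 highest, and PDK2 lies below.

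Of the 3 PFKFB genes, PFKFB3, whose enzyme strongly favours making fructose 2,6-bisphosphate, passed the test with AII+EGF. It was at 51.6, 53.1, 44.3 and 55.1 FPM in control libraries, 59.4, 65.4, 51.8 and 66.3 after EGF and 69.9, 84.6, 59.9 and 69.5 after AII+EGF. The AII+EGF libraries were all above control, with 0.47 (SE 0.10, adjusted p = 0.00564), while the EGF libraries overlapped with control, with 0.25 (SE 0.10, adjusted p = 0.165). PFKFB4 was at 9.71, 8.45, 10.2 and 8.6 FPM in control, 11.8, 10.5, 8.05 and 9.22 after EGF and 10.5, 15.4, 9.66 and 10.1 after AII+EGF, with 0.10 (SE 0.18, adjusted p = 0.821) and 0.31 (SE 0.18, adjusted p = 0.384). PFKFB2 was at 9.7 to 17.1 FPM over all libraries and was not called in any comparison.

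In lactate formation and export, LDHA (chr11:18416107-18429972, plus strand), the muscle-type subunit that favours lactate formation, was at 384, 426, 441 and 484 FPM in control libraries, 406, 436, 395 and 519.8 after AII, 718, 754, 693 and 727 after EGF and 705, 767, 648 and 671 after AII+EGF. The libraries with and without EGF did not overlap, and the rises were 0.74 (SE 0.084, adjusted p = 4.7e-06) with EGF and 0.68 (SE 0.084, adjusted p = 1.1e-05) with AII+EGF. LDHB, the heart-type subunit, gave 0.15 (SE 0.083, adjusted p = 0.303) and 0.17 (SE 0.083, adjusted p = 0.271). The lactate exporter SLC16A1 (MCT1) was at 325, 377, 402 and 390 FPM in control libraries, 473, 423, 467 and 458 after EGF and 397, 403, 434 and 399.6 after AII+EGF. It rose with EGF by 0.28 (SE 0.078, adjusted p = 0.0291), a call lost without control replicate 1 or EGF replicate 1, 3 or 4 (adjusted p = 0.0593 to 0.0801), and gave 0.13 (SE 0.078, adjusted p = 0.401) with AII+EGF. SLC16A3 (MCT4), the exporter of highly glycolytic cells, was low, at 1.61 to 3.97 FPM over all libraries, and was not called.

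At the pyruvate dehydrogenase step, PDK1 and PDK2, a pair of kinases that inhibit the enzyme, moved in opposite directions. PDK1 was at 86.5, 116, 98.5 and 89.6 FPM in control libraries, 109.7, 112, 98.2 and 103 after AII, 170.2, 156, 123 and 117 after EGF and 154, 161, 108 and 113 after AII+EGF, so that AII+EGF replicates 3 and 4 lay within the control range. It rose by 0.53 (SE 0.13, adjusted p = 0.0135) with EGF and 0.45 (SE 0.13, adjusted p = 0.0373) with AII+EGF, and within the first and second run of libraries the differences were 0.69 and 0.35 with EGF and 0.64 and 0.24 with AII+EGF. The PDK1 call with EGF was lost without EGF replicate 1 (adjusted p = 0.0627) or 2 (0.0507), and that with AII+EGF without control replicate 1, 3 or 4 or AII+EGF replicate 1 or 2 (0.0744 to 0.147).

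PDK2 (chr17:48172101-48189516, plus strand) was the only member that fell after 6 h with EGF or AII+EGF against control. It was at 13, 17.4, 16.7 and 16.9 FPM in control libraries, 16.5, 14.7, 18.5 and 12.3 after AII, 7.53, 8.67, 5.52 and 11.9 after EGF and 8.76, 9.26, 12.7 and 7.82 after AII+EGF. Every EGF and AII+EGF library was below every control library, with -0.91 (SE 0.19, adjusted p = 0.0052) and -0.73 (SE 0.19, adjusted p = 0.0247), whereas against AII the libraries overlapped, with -0.69 (SE 0.20, adjusted p = 0.0353). PDK2 was 1 of 2 members lower without overlap with EGF, beside 5.43% of all genes. With AII+EGF it was the 1 such member, beside 5.37%. Within the runs of libraries the differences with EGF were -0.91 and -0.95. The call with AII+EGF was lost without control replicate 2, 3 or 4 or AII+EGF replicate 1, 2 or 4 (adjusted p = 0.0556 to 0.0972), and against AII without AII replicate 1, 2 or 3 or AII+EGF replicate 1, 2 or 4 (0.0652 to 0.132). PDK2 shares 2113 exonic bases with SAMD14 on the opposite strand, and since the strand setting of the counting is not stated, reads of the pair cannot be told apart. Shorter stretches are shared with genes on the opposite strand by PDHA1 (956 bases), PFKM (516), SLC16A3 (482), PDK1 (445), GAPDH (422), PFKFB2 (315), SLC16A1 (231), PGM1 (197) and ENO1 (126), among others, where the same holds. PDHA1, the catalytic subunit that the kinases phosphorylate, gave 0.037 (SE 0.081, adjusted p = 0.854) with EGF and -0.021 (SE 0.082, adjusted p = 0.934) with AII+EGF, PDK3 gave 0.032 (SE 0.11, adjusted p = 0.915) and 0.071 (SE 0.11, adjusted p = 0.792), and PDK4 gave 0.22 (SE 0.55, adjusted p = 0.88) and 0.077 (SE 0.57, adjusted p = 0.968).

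Within families the isozymes moved unequally, which showed in their shares of the family's summed FPKM. HK2 made up 30.7% ± 0.541 (SD, n = 4) of HK1 and HK2 in control libraries after 6 h, 30.5% ± 2.28 after AII, 42.1% ± 0.648 after EGF and 43.4% ± 2.52 after AII+EGF. PFKP made up 25.8% ± 2.36 of phosphofructokinase in control libraries and, in the same order, 25.4% ± 2.94, 38.7% ± 1.01 and 38.4% ± 2.34 with the stimuli. LDHA made up 31.1% ± 2.79 of LDHA and LDHB, then 32.6% ± 0.159, 40.3% ± 1.83 and 39.2% ± 3.28. The HK2, PFKP and LDHA shares of libraries with EGF, alone or with AII, did not overlap with those without. These shares are given as a description, with no test. After 24 h the shares of HK2 were 27.5% ± 3.75 in control, 26.6% ± 4.16 for EGF and 26.4% ± 2.08 for AII+EGF, and those of PFKP 40.6% ± 4.27, 40.9% ± 1.88 and 43.6% ± 1.11.

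**Figure D3:**
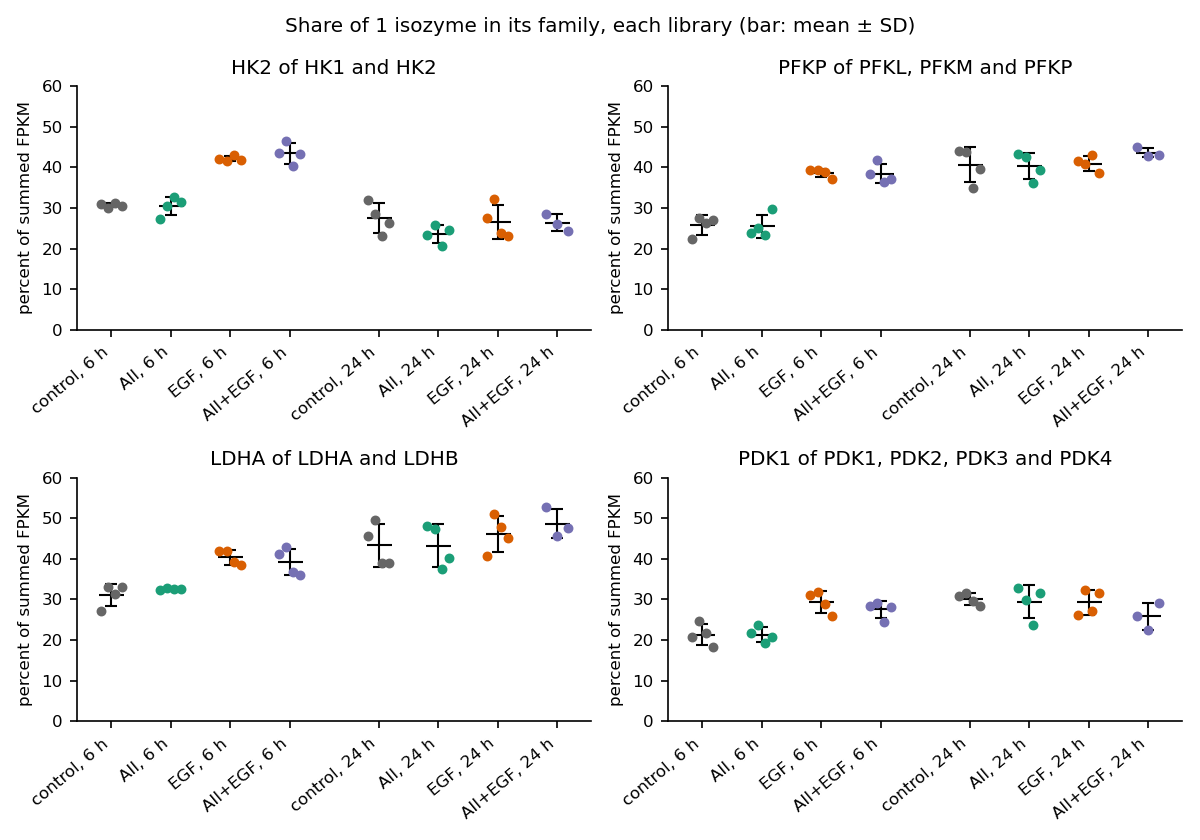
Share of HK2, PFKP, LDHA and PDK1 in their families in percent, with 1 point per library and the group mean, after 6 h and 24 h. After 6 h the shares of HK2, PFKP and LDHA with EGF and AII+EGF lie above those of control and AII, and after 24 h the groups lie close together.

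Against AII instead of control, the called log2 fold changes of AII+EGF after 6 h were 1.52 for SLC2A1, 1.35 for SLC2A3, 1.02 for HK2, 0.94 for PFKP, 0.67 for LDHA, 0.53 for PGAM1, 0.52 for PKM, 0.51 for PFKFB3, 0.47 for ENO1, 0.47 for ALDOA, 0.46 for PGK1 and 0.36 for GPI, with adjusted p from 2.5e-08 for HK2 to 0.00486 for SLC2A3. ENO2 gave 0.73 (SE 0.17, adjusted p = 0.00856). In all of them the AII+EGF libraries lay above the AII libraries without overlap. EGF could be compared with no EGF a second time in separate libraries, since EGF against control and AII+EGF against AII share none. After 6 h, 24 of the 30 members had the same sign in both, 23 of them higher, and 11 members were called in both, out of 13 called with EGF and 17 called with AII+EGF against AII. Over all genes tested, 61.8% had the same sign, 28.5% were higher in both, and the 513 genes called in both were 46.1% of those called with EGF and 46.5% of those called with AII+EGF against AII. Across the 30 genes, which are not independent of each other, the log2 fold changes had a Pearson correlation of 0.85 and a Spearman correlation of 0.79, and across all genes, low counts included, 0.41 and 0.32. PDK2 was lower in both comparisons, and SLC2A1, SLC2A3, HK2, PFKP and LDHA were higher in both. ALDOA, GAPDH, GPI, PFKFB3, PGM1 and TPI1 were called against AII and not with EGF against control, and PDK1 and SLC16A1 the other way round.

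**Figure D4:**
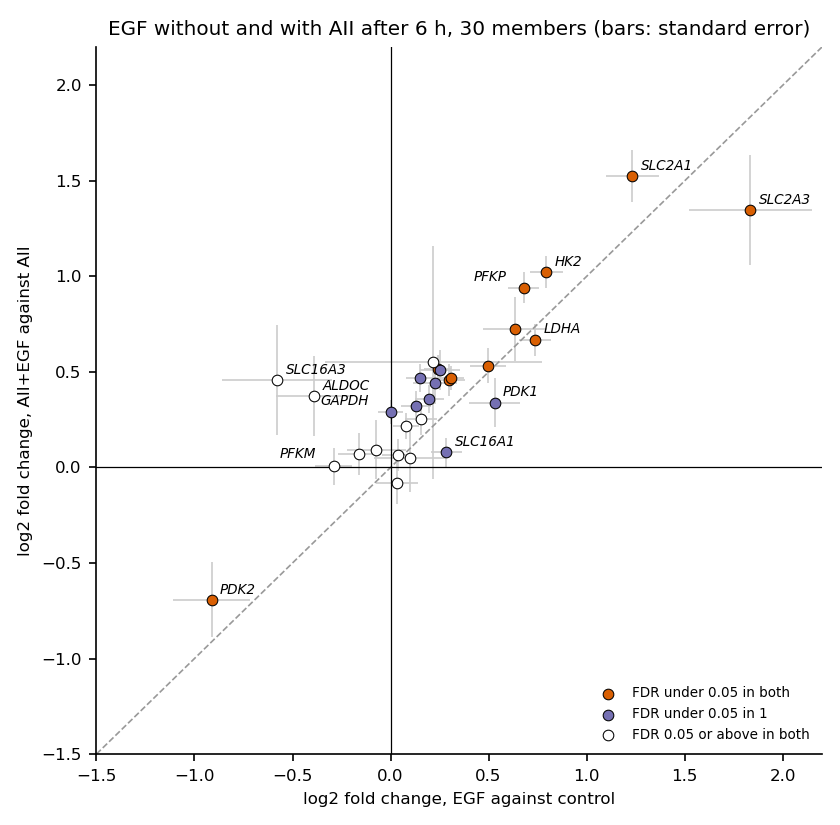
Log2 fold change of the 30 members after 6 h with EGF against control on the horizontal axis and with AII+EGF against AII, which share no library, on the vertical axis. Most points lie above 0 on both axes, with SLC2A3 and SLC2A1 farthest out and PDK2 in the lower left.

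No member passed the test with AII alone after 6 h. All 30 members passed the filter on low counts at both times and entered every test. Of all genes tested 0 were called by edgeR, 4.54% had an unadjusted p under 0.05, and among the members this was 1 gene, ALDOC, while DESeq2 called 0 members. ALDOC was at 9.71, 7.34, 6.13 and 7.77 FPM in control libraries and 5.52, 4.32, 6.34 and 4.72 with AII, a difference of -0.55 (SE 0.21, adjusted p = 0.987). SLC16A3 gave -0.54 (SE 0.29, adjusted p = 0.987). The log2 fold change was above 0 in 7 members and in 50.6% of all genes. SLC2A3 was the 1 member higher than control without overlap, beside 0.978% of all genes. The 95% interval of the difference with AII was -0.32 to 0.27 for SLC2A1 and -0.21 to 0.15 for HK2.

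AII+EGF against EGF answers whether AII added to the response, and no member passed the test after 6 h. By edgeR 0 of all genes were called, while 7.26% of all genes had an unadjusted p under 0.05, 3.78% of all genes being higher at that p. Among the members 8 had an unadjusted p under 0.05, all higher, and DESeq2 called 0 members. Of all genes DESeq2 called 1, higher, which was AGTR1, the gene of the transfected receptor. The log2 fold change was above 0 in 25 members and in 50.1% of all genes. The smallest p-values belonged to ALDOA, with 0.23 (SE 0.073, adjusted p = 0.677) and no overlap, GAPDH, with 0.19 (SE 0.063, adjusted p = 0.677), and HK2, with 0.20 (SE 0.081, adjusted p = 0.677). In this comparison 3 members and 2.85% of all genes were higher without overlap. For SLC2A1 the difference was 0.27 (SE 0.13, adjusted p = 0.682) with a 95% interval of 0.0037 to 0.53.

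The interaction is what AII+EGF gave in log2 beyond AII and EGF added together. It was called for 0 genes by edgeR, and DESeq2 called 0 members and 1 of all genes. An unadjusted p under 0.05 was found for 8.01% of all genes, with 3.80% of all genes above 0 at that p, and for 7 members, all above 0. The value was above 0 in 24 members and in 50.9% of all genes. GAPDH gave 0.29 (SE 0.089, adjusted p = 0.592), ALDOA 0.31 (SE 0.10, adjusted p = 0.592) and PKM 0.28 (SE 0.098, adjusted p = 0.592). For SLC2A1 it was 0.29 with a 95% interval of -0.10 to 0.68, and for HK2 0.23 with -0.017 to 0.47.

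Neighbouring pathways were read from lists of other genes, also chosen with earlier results of these data known. Of 14 further glycolytic isozymes and transporters that passed the filter on low counts, edgeR called 0 with EGF for 6 h (2 higher and 1 lower at an unadjusted p under 0.05, DESeq2 calls 0), and with AII+EGF 1, BSG, the chaperone of the lactate exporters, which rose by 0.34 (SE 0.073, adjusted p = 0.00468). Of 11 genes of mitochondrial pyruvate entry and the rest of the dehydrogenase complex, 0 were called with EGF (2 higher and 2 lower at an unadjusted p under 0.05, DESeq2 calls 0) and 0 with AII+EGF (3 higher, DESeq2 calls 0). Over all genes tested, 10.2% were higher and 10.0% lower at that p with EGF, and 10.1% and 8.89% with AII+EGF. Of 9 genes of the pentose phosphate pathway, which takes glucose 6-phosphate to ribose, 2 rose with EGF and 2 with AII+EGF, among them PRPS2, a synthetase that activates ribose 5-phosphate, by 0.41 (SE 0.083, adjusted p = 0.00314) and 0.37 (SE 0.084, adjusted p = 0.00834). The others were the epimerase RPE with EGF, by 0.31 (SE 0.093, adjusted p = 0.05), and PRPS1 with AII+EGF, by 0.26 (SE 0.078, adjusted p = 0.0442). Of 11 genes of glycogen turnover and gluconeogenesis, 1 rose in each, the glycogen branching enzyme GBE1, by 0.84 (SE 0.11, adjusted p = 2.5e-05) and 0.79 (SE 0.11, adjusted p = 5.0e-05). DESeq2 also called PRPS1 higher with EGF, the glucose 6-phosphate transporter SLC37A4 lower with EGF and with AII+EGF, and the glycogen phosphorylase PYGL higher with AII+EGF, of which edgeR gave 0.25 (SE 0.078, adjusted p = 0.0586) for PRPS1, -0.36 (SE 0.11, adjusted p = 0.0624) and -0.36 (SE 0.11, adjusted p = 0.0631) for SLC37A4 and 0.21 (SE 0.067, adjusted p = 0.0671) for PYGL.

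Of 18 genes of the HIF system outside glycolysis, 6 rose with EGF for 6 h and 7 with AII+EGF, none fell, and their median log2 fold changes were 0.28 and 0.42 beside -0.01 over all genes. NDRG1, a stress-responsive HIF target, rose by 1.29 (SE 0.098, adjusted p = 1.2e-08) and 1.5 (SE 0.098, adjusted p = 5.9e-10). EPAS1, which encodes HIF-2α, rose by 1.23 (SE 0.16, adjusted p = 2.4e-05) and 1.15 (SE 0.16, adjusted p = 5.2e-05), and EGLN3, a prolyl hydroxylase that marks HIF for breakdown, by 0.69 (SE 0.12, adjusted p = 0.000798) and 0.74 (SE 0.12, adjusted p = 0.000288). The HIF1A transcript, singled out after its values were seen, rose with EGF by 0.34 (SE 0.08, adjusted p = 0.0111) and gave 0.21 (SE 0.08, adjusted p = 0.135) with AII+EGF. DESeq2 called 7 genes of this list with EGF and 8 with AII+EGF, adding P4HA1 in each. HIF proteins are controlled mainly by breakdown, which these counts do not measure.

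Of 5 immediate targets of EGF, 3 passed the filter on low counts and all 3 rose in the same libraries. ETV5 rose by 5.64 (SE 0.49, adjusted p = 9.9e-08) with EGF and by 5.87 (SE 0.48, adjusted p = 1.7e-08) with AII+EGF, EGR1 by 4.48 (SE 0.17, adjusted p = 2.4e-14) and 4.64 (SE 0.17, adjusted p = 9.5e-15), and FOS by 2.34 (SE 0.31, adjusted p = 3.2e-05) and 2.68 (SE 0.30, adjusted p = 2.9e-06). DESeq2 called the same genes except FOS with EGF, for which it gave no adjusted p. AGTR1, the gene of the transfected receptor, was at 950.1 to 1191 FPM in control libraries, 1318 to 1515 after AII, 1023 to 1236 after EGF and 1414 to 1568 after AII+EGF. It was thus higher in every library with AII than in any without, with 0.45 (SE 0.076, adjusted p = 0.000498) for AII+EGF against control and 0.34 (SE 0.076, adjusted p = 0.987) for AII, and its part in the AII+EGF values was not tested. Among the markers of HEK293 cells NEFM rose by 0.60 (SE 0.097, adjusted p = 0.0004) with EGF and 0.73 (SE 0.097, adjusted p = 3.3e-05) with AII+EGF, and KRT18 by 0.91 (SE 0.23, adjusted p = 0.0188) with AII+EGF. VIM gave -0.21 (SE 0.063, adjusted p = 0.052) with EGF by edgeR and was called lower by DESeq2 (adjusted p = 0.0117).

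After 24 h no member was called with EGF or with AII+EGF, in libraries whose spread was larger. With EGF, edgeR called 0 members and 0.0316% of all 22174 genes tested, while 10 members (9 higher) and 8.48% of all genes (4.0% higher) had an unadjusted p under 0.05. DESeq2 called 2 members, HK1 and ALDOA. The log2 fold change was above 0 in 23 members and in 49.6% of all genes, with a median of 0.22 over the members, and 5 members and 2.35% of all genes were higher without overlap. With AII+EGF, edgeR called 0 members and 0.0271% of all genes, 7 members (6 higher) and 5.40% of all genes (2.92% higher) had an unadjusted p under 0.05, and DESeq2 called 1 member, ALDOA. Here 24 members and 49.1% of all genes were above 0, and 7 members and 3.99% of all were higher without overlap.

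HK1 had the smallest p with EGF after 24 h. It was at 64, 82.3, 78.6 and 74.1 FPM in control libraries, 119.6, 93.4, 94.4 and 124 after EGF and 99.3, 91.2 and 96.3 after AII+EGF, all above control, with 0.53 (SE 0.13, adjusted p = 0.17) and 0.35 (SE 0.14, adjusted p = 0.85). ALDOA was at 290.3, 321, 300.1 and 307 FPM in control libraries, 382, 367, 392 and 422 after EGF and 392, 411 and 429 after AII+EGF, with 0.36 (SE 0.11, adjusted p = 0.338) and 0.43 (SE 0.11, adjusted p = 0.365). In both genes the groups did not overlap, yet the adjusted p missed the threshold. HK2 gave 0.47 (SE 0.14, adjusted p = 0.338) and 0.28 (SE 0.15, adjusted p = 0.946), with overlap, and ENO2 with AII+EGF gave 0.49 (SE 0.20, adjusted p = 0.906).

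SLC2A1 was at 22.9, 25.9, 15.7 and 14 FPM in control libraries after 24 h, 19.5, 22.9, 28.7 and 23.7 after AII, 24.4, 28.6, 24.7 and 26.9 after EGF and 30.5, 23.7 and 24.5 after AII+EGF. Control replicate 2 lay within the EGF range, and control replicates 3 and 4 lay below every stimulated library. The log2 fold changes were 0.42 (SE 0.18, adjusted p = 0.518) and 0.43 (SE 0.19, adjusted p = 0.906), and within the first and second run of libraries 0.12 and 0.80 with EGF and 0.32 and 0.70 with AII+EGF. In the first run AII+EGF rests on replicate 1 alone. SLC2A3 was at 12.9, 14.7, 4.25 and 2.99 FPM in control libraries, 19.7, 20.4, 14.6 and 7.63 after EGF and 20.4, 9.17 and 9.59 after AII+EGF, so that the groups overlapped, with 0.85 (SE 0.44, adjusted p = 0.624) and 0.61 (SE 0.47, adjusted p = 0.997).

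PFKFB4 was lower after 24 h in every library with EGF or AII+EGF than in any control library, at 8.03, 7.17, 5.84 and 5.52 FPM in control, 1.5, 4.41, 3.48 and 3.98 after EGF and 4.9, 3.27 and 4.1 after AII+EGF, with -0.97 (SE 0.30, adjusted p = 0.339) and -0.68 (SE 0.32, adjusted p = 0.921). It was the 1 member lower without overlap with EGF, beside 2.08% of all genes, and 1 of 2 with AII+EGF, beside 3.19%, the other being PFKFB2 with -0.51 (SE 0.33, adjusted p = 0.987). PFKFB3 gave -0.051 (SE 0.16, adjusted p = 0.965) with EGF and -0.0043 (SE 0.17, adjusted p = 1) with AII+EGF. PDK1 gave -0.098 (SE 0.17, adjusted p = 0.926) and -0.18 (SE 0.18, adjusted p = 0.999), and PDK4, at 0 to 2.7 FPM, gave -0.51 (SE 0.73, adjusted p = 0.908) and 0.31 (SE 0.76, adjusted p = 0.999). None of these passed the test.

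**Figure D5:**
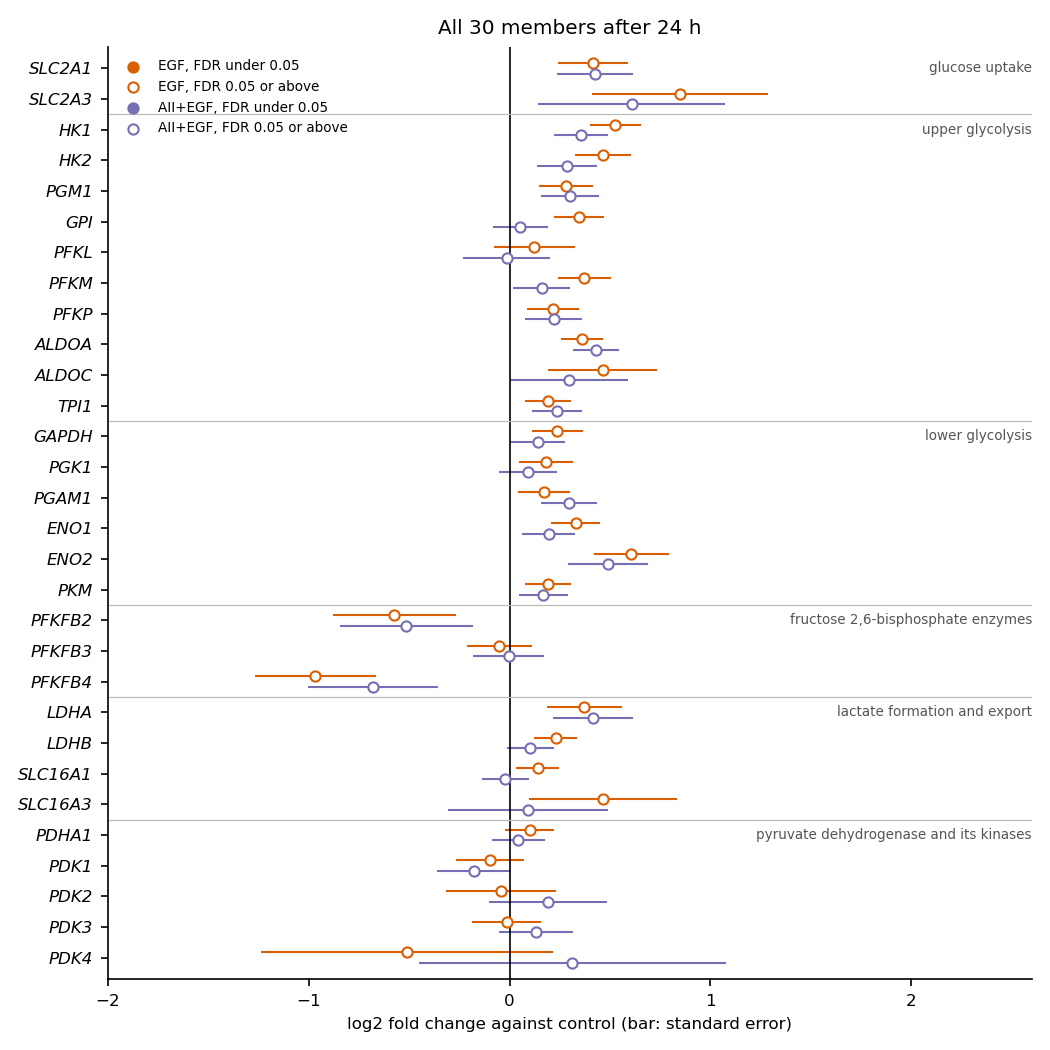
Log2 fold change of the 30 members after 24 h with EGF and AII+EGF against control, in the order of the plot for 6 h. Bars show the standard error of the edgeR fit. They are wider than after 6 h, and no member passed an adjusted p of 0.05.

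The other comparisons after 24 h gave no called member either. For AII against control, edgeR called 0 genes, 2.49% of all genes and 0 members had an unadjusted p under 0.05, and DESeq2 called 0 members. The smallest p-values were those of PGM1, with -0.28 (SE 0.14, adjusted p = 1), PFKFB4, with -0.60 (SE 0.30, adjusted p = 1), and ALDOC, with -0.45 (SE 0.28, adjusted p = 1). For AII+EGF against EGF, edgeR called 0 genes, 3.37% of all genes and 1 member, GPI, had an unadjusted p under 0.05, DESeq2 called 0 members, and GPI gave -0.29 (SE 0.14, adjusted p = 1). PFKM gave -0.21 (SE 0.14, adjusted p = 1) and SLC16A1 -0.16 (SE 0.12, adjusted p = 1) there.

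For AII+EGF against AII after 24 h, edgeR called 0 members and 0.0451% of all genes, 7 members and 4.28% of all genes had an unadjusted p under 0.05, and DESeq2 called 1 member, ALDOA. ALDOA gave 0.51 (SE 0.11, adjusted p = 0.146), PGM1 0.58 (SE 0.15, adjusted p = 0.32) and ENO2 0.69 (SE 0.20, adjusted p = 0.599), all without overlap. In this comparison 8 members and 3.81% of all genes were higher without overlap. The 2 EGF comparisons without shared libraries had the same sign in 24 of 30 members after 24 h, 19 of them higher, beside 59.4% and 28.8% of all genes, with a Pearson correlation of 0.34 and a Spearman correlation of 0.49 across the members, and 0.15 and 0.2 across all genes. For the interaction after 24 h, edgeR called 0 genes, 2.37% of all genes and 0 members had an unadjusted p under 0.05, and DESeq2 called 0 members. PFKFB4 gave 0.88 (SE 0.44, adjusted p = 1), HK1 -0.37 (SE 0.19, adjusted p = 1) and PDK4 1.73 (SE 1.07, adjusted p = 1). Outside the members, the lists of further isozymes, pyruvate entry, pentose phosphates, glycogen and HIF had 0 calls by edgeR with EGF and AII+EGF after 24 h, with 1, 1, 2, 2 and 5 genes higher at an unadjusted p under 0.05 with EGF and, in the same order, 0, 1, 0, 3 and 2 with AII+EGF, while DESeq2 called PCK2 in both comparisons and NDRG1 with EGF. EGR1 still rose, by 2.53 (SE 0.19, adjusted p = 1.5e-07) and 2.95 (SE 0.19, adjusted p = 1.9e-08).

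A joint fit of all libraries compared the effects after 24 h with those after 6 h. For AII+EGF against control, edgeR called 0.123% of all genes and 1 member, SLC2A1, whose log2 effects differed by -1.10 (SE 0.24, adjusted p = 0.0472), being smaller after 24 h than after 6 h. The SLC2A1 call was lost in 11 of the 15 fits that left out 1 library, with adjusted p from 0.0609 to 0.203, and was kept without control replicate 4 after 6 h, control replicate 3 or 4 after 24 h, or AII+EGF replicate 1 after 24 h. HK2 gave -0.73 (SE 0.17, adjusted p = 0.0852) and PFKP -0.65 (SE 0.16, adjusted p = 0.119), and 9 members and 7.49% of all genes had an unadjusted p under 0.05. For EGF against control, edgeR called 0 members and 0.173% of all genes, 10 members and 10.1% of all genes had an unadjusted p under 0.05, and DESeq2 called 1 member, PFKM. PFKM gave 0.66 (SE 0.17, adjusted p = 0.107), SLC2A1 -0.82 (SE 0.23, adjusted p = 0.153) and PFKFB4 -1.06 (SE 0.34, adjusted p = 0.236). The libraries of the time points also differed in their share of U1 RNA, and the time difference and that share cannot be told apart.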

How the data were processed

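Total RNA of HEK293 cells transfected with AT1R was depleted of ribosomal RNA and sequenced in pairs. The files deposited hold unnormalized counts for each gene, which the authors made by clipping adaptors with Trim Galore (cutadapt 1.8.1), mapping with TopHat2 2.0.14 to hg19 and counting with featureCounts 1.4.6 on an Ensembl annotation. The design text of the series gives HISAT2 as mapper. The strand setting is not given in the sources used here. After 24 h the names of 8 count columns hold the word filtered and those of 7 do not, with no explanation. Those with the word are all columns of the first run and that of AII+EGF replicate 3. For 1 AII+EGF library after 24 h no column was found by name, and it is not analysed here.

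In R 4.3.3, edgeR 4.0.16 gave TMM factors and quasi-likelihood F tests with Benjamini-Hochberg adjustment over all genes tested, in 1 fit per time point with all 4 conditions and in a joint fit for the time difference. Low counts were removed with filterByExpr. Errors of log2 fold changes are standard errors of this fit. FPM are counts scaled to 1000000 per TMM-normalized library, and FPKM divide them by the length of the canonical Ensembl transcript (GENCODE placed on GRCh37), which is long for PDK1. The interaction is on the log2 scale. Conditions come from the labels, which give no replicate numbers, and replicates are numbered in accession order. The 2 runs are consecutive library numbers in the labels and are not called a batch there. Members called in a comparison are named, or the 3 with the smallest p where fewer than 3 were called, besides SLC2A1, SLC2A3, HK2, PFKFB3, PFKFB4, PDK1 and PDK4 in EGF and AII+EGF against control, and at most the 3 with the largest change of each further list. The members and lists were chosen with earlier results of these data known. Promoter sequences are from RefSeq on GRCh38.p14, and those of SLC2A3, SLC16A1 and PFKFB2 were not analysed here. Alternatives were DESeq2 1.42.0, its size factors, no filter, protein-coding genes only, the runs as a block, only the libraries compared, a stricter FDR, the study's filters and leaving out each library. The fits were tested on simulated data.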

Additional observations from a re-analysis of the deposited data

Results flagged for a closer look

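In 14 of 210 groups of 4 libraries, the highest or lowest library stood apart from the other 3 by Dixon's ratio of gap to range at the 95% level, which chance gives in about 1 of 20 groups. Control replicate 1 after 6 h was the library apart for PDK2, where it was low (ratio 0.839), and for PFKM (0.834) and TPI1 (0.888), where it was high. After 6 h a library was also apart for ALDOA (0.846) and SLC16A1 (0.927) with AII, both high, and for PFKFB4 (0.848, high) and SLC16A3 (0.941, low) with AII+EGF. After 24 h the ratio was 0.902 for PGAM1 and 0.946 for SLC16A1 in control, both high. With AII after 24 h it was 0.948 for PFKFB3 and 0.832 for SLC16A3, both low, and 0.922 for PFKFB4 and 0.914 for PKM, both high. PDK4 with EGF after 24 h had a ratio of 0.904 with 1 low library.

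The effect of AII+EGF against control on SLC2A1 differed between 24 h and 6 h by -1.10 on the log2 scale (adjusted p = 0.0472, edgeR).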

How the results depend on the processing

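No paired analysis was possible because no numbers in the labels tie libraries of different groups together. Of 96 values of single members, 70 kept their direction and their side of the threshold under every alternative, and of the 46 called ones none changed sign. The count of members called with EGF after 6 h was 8 at an FDR of 0.01, for which the count over all genes is not given here. It was 7 with the study's filters (322 of all genes), and 10 to 12 without 1 library (758 to 1089 of all genes). With AII+EGF against control it was 7 with the study's filters (363 of all genes) and 13 to 15 without 1 library (701 to 1197 of all genes). Against AII it was 7 (348 of all genes) and 15 to 18 (666 to 1195 of all genes). DESeq2 called 17 against control, adding HK1 and GAPDH, and 19 against AII, adding HK1 and LDHB, with 1312 and 1307 of all genes. The highest member counts under any alternative were 14 with EGF, 17 and 20. Over all genes the highest were 1416, 1331 and 1329, which need not come from the same fits. Members were called after 24 h with DESeq2 for EGF (2, HK1 and ALDOA) and AII+EGF (1, ALDOA), and for AII+EGF against AII 1 (ALDOA) with DESeq2, protein-coding genes only or runs as a block. With DESeq2 50 of all genes were called for AII+EGF, and against AII 44, with 25 and 41 for the other settings. For the time difference of EGF, DESeq2, protein-coding genes only and the block each called 1 (PFKM) and no filter called 1 (SLC2A1). The first 3 of these and no filter called 113, 63, 77 and 85 of all genes. For that of AII+EGF, DESeq2 called 3 (68 of all genes), no filter 3 (94), the block 2 (60), DESeq2 size factors 0, an FDR of 0.01 gave 0, and leaving out 1 library gave 0 to 2. In the other comparisons, where 0 members were called, leaving out 1 library left the count at 0. The cause of these shifts was not tested.

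Some values that missed the threshold changed sign. Without 1 library PDK4 ranged for EGF and AII+EGF from -0.20 to 0.68 and from -0.22 to 0.54 after 6 h, and from -0.93 to 0.071 and from -0.11 to 0.90 after 24 h. PFKFB3 ranged likewise from -0.16 to 0.080 and from -0.12 to 0.11 after 24 h, and was 0.0026 with AII+EGF without a filter. PDK1 ranged from -0.21 to 0.030 with EGF after 24 h. Over all genes, 90, 61 and 95 were called without a filter for AII, AII+EGF against EGF and the interaction after 6 h, against 0 with it. For EGF after 24 h 7 genes were called, against 99 with DESeq2, 86 without a filter, 26 with protein-coding genes only and 48 with the block. PDK4 rests on few counts, so that depth limits it.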
